A study of Mus musculus with 24 samples.

Results

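The melanocortin system of the mouse hypothalamus was described here by 8 genes out of the 55471 genes counted, which were chosen by name with earlier results of these data known. They encode the precursor proopiomelanocortin (Pomc), the peptide precursor CART (Cartpt), the processing enzymes Pcsk1, Pcsk2 and Cpe, the degrading enzyme Prcp, and the brain melanocortin receptors Mc3r and Mc4r. All 8 were among the 18992 genes that passed the filter on low counts. Hypothalamic RNA came from male C57BL6/J mice, 18 weeks old and fed chow, each with a tube for infusion into the stomach. ExpOF mice (experimental overfeeding) received a liquid diet with added sucrose at rates that rose until the infused energy reached 150% of baseline intake on day 9, and Control mice received sterile water at the same flow rates. ExpOF d14 (n = 6) and Control d14 (n = 5 used of 6) were sampled on day 14, at the end of the infusion. ExpOF d14+3 (n = 6) and Control d14+3 (n = 6) were sampled on day 17, after 3 days in which both received only sterile water through the tube. The labels name no transgene or deletion, each library is 1 mouse, and the model covers 1 sex, 1 strain and 1 solid food, chow. Below, diet means the infusion up to day 14, liquid diet in ExpOF and water in Control mice.

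Neurons of the arcuate nucleus make POMC and release alpha-MSH, a peptide that acts on the melanocortin receptors of other neurons and lowers food intake, while AGRP from neighbouring neurons blocks the same receptors. The precursor is cut after pairs of basic residues by the convertases PC1/3 (Pcsk1) and PC2 (Pcsk2), and carboxypeptidase E (Cpe) then removes the basic residues that remain. Each melanocortin peptide carries the core His-Phe-Arg-Trp, which the receptors recognise.

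Within the mouse Pomc transcript Pomc-201 the coding sequence had 708 bases, 236 codons with the stop, and held 8 pairs of basic codons, of which 3 were Lys-Arg, 2 Arg-Arg, 2 Lys-Lys and 1 Arg-Lys (counted from left to right without overlap). The core was encoded 3 times, and the stretches around it are shown because they hold the sequence that the receptors recognise. They lie in exon 3 of 3 on the forward strand of chromosome 12 in GRCm38, at chr12:3959977-3960036 for gamma-MSH, chr12:3960121-3960180 for alpha-MSH and chr12:3960313-3960372 for beta-MSH. Capitals mark the 4 codons of the core.
gamma-MSH part: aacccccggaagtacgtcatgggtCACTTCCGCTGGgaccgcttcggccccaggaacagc
alpha-MSH part: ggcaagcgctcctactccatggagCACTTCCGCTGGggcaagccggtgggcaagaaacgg
beta-MSH part: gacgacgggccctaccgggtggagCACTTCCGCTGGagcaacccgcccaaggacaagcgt
The 12 bases of the core differed at 0 positions between the 3 stretches. Between the core and the next pair of basic codons lay 16 codons in the gamma-MSH part, 5 in the alpha-MSH part and 6 in the beta-MSH part. The codons printed before the core hold a pair of basic codons in the gamma-MSH and alpha-MSH parts, but none in the beta-MSH part. The parts are named by region only, and which peptides the mice made was not measured. The Cartpt coding sequence had 390 bases, 5 pairs of basic codons and 0 copies of the core.

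The 250 bases before the start sites of Pomc and Cartpt are shown next, from RefSeq on GRCm38.p6. Whether these stretches bear on the levels of Pomc and Cartpt was not tested. The Pomc stretch is chr12:3954695-3954944 on the forward strand, and the Cartpt stretch is chr13:99900684-99900933, read on the reverse strand.
Pomc: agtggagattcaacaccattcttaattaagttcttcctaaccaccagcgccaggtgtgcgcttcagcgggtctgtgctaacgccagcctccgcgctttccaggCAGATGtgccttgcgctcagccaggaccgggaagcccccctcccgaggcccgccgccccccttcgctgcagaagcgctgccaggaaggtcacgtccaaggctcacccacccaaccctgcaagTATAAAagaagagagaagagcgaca
Cartpt: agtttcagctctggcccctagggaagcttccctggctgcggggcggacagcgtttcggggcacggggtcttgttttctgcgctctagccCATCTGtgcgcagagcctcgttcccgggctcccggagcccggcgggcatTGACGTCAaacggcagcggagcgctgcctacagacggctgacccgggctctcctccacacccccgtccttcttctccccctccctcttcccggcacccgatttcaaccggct
Capitals mark the motifs found. In windows of 300 bases (250 before and 50 after the start), 6 motifs were searched on both strands: the TATA box TATAAA, the cAMP response element TGACGTCA and its core TGACG, the E-boxes CACGTG and CATCTG, and the STAT site TTCNNNGAA. A full cAMP response element always contains this core. The Pomc window held TATAAA at -25 and CATCTG on the reverse strand at -147, motifs that 13.6% and 17.2% of all 32851 promoters of this length hold. The Cartpt window held TGACGTCA at -112, which 1.79% of promoters hold, and CATCTG at -161. TGACGTCA also occurred in the Pcsk1 window, at -78. Promoters were listed for 6 of the 8 genes, with GC contents of 59.0% for Pomc and 66.0% for Cartpt against a median of 52.7% over all promoters.

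Total counts per library ran from 8.93e+06 to 3.48e+07, and Control d14 replicate 4, which the study removed for RNA quality, was left out of every value below unless it is named. The RNA integrity number ran from 7.2 to 10 and averaged 9.20 in Control d14, 9.75 in ExpOF d14, 8.62 in Control d14+3 and 9.43 in ExpOF d14+3. The killing dates in the labels form cohorts of July and of September. Hypothalamic identity was visible in every group: 8 of 8 hypothalamic markers were found, and their summed level ran from 471 to 1238 CPM (counts scaled to the same total in every library). Of 7 arcuate markers, Kiss1 was at 0 in all 23 libraries and the other 6 were counted. The anterior pituitary hormone transcript Gh exceeded 1 CPM in 7 libraries, all of them from d14 (4 of 5 Control d14 and 3 of 6 ExpOF d14), and 10 CPM in 3 of these, with a highest value of 93.9 CPM in Control d14 replicate 1. On d14+3 its highest value was 0.606 CPM. Over all 11 pituitary markers the summed level ran from 18.9 to 118 CPM in Control d14, from 16.7 to 35.8 CPM in ExpOF d14, from 14.1 to 18.6 CPM in Control d14+3 and from 14.4 to 20.1 CPM in ExpOF d14+3. The corticotroph factor Tbx19 lay between 0.444 and 1.70 CPM in every library and Lhb was at 0 in all of them. The choroid plexus transcript Ttr exceeded 1000 CPM in Control d14 replicate 5 and ExpOF d14+3 replicate 4.

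Cpe was by far the most abundant of the 8 transcripts per length, and Mc4r the least. Levels below are CPM per kilobase of exon (mean ± SD, n = 23). Cpe was at 822 ± 89.8 and ranked 12 among all genes tested. Cartpt at 42.4 ± 9.39 and Pcsk2 at 39.1 ± 4.62 followed and were not separated, since Cartpt was the higher of the pair in only 13 of 23 libraries. Pomc was at 25.0 ± 8.61 and was exceeded by Pcsk2 in 19 of 23 libraries. Pcsk1 came next with 12.6 ± 2.08 and lay under Pomc in 21 of 23 libraries. Both receptors and the degrading enzyme were far lower, with Mc3r at 2.97 ± 0.208, Prcp at 1.71 ± 0.183 and Mc4r at 1.38 ± 0.193. Mc3r exceeded Prcp in 23 of 23 libraries, and Prcp exceeded Mc4r in 22 of 23. Mean counts per library were 51921 for Cpe, 796 for Pomc and 91.5 for Mc4r, so counting error weighs most on Mc4r.

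Pomc was the most variable of the 8 between mice of a group. Its SD on the log2 scale, pooled over the groups, was 0.381, where counting alone gives 0.0511, and it stood at the percentile 100 among the 500 genes of nearest level. Cartpt stood at percentile 95 and Pcsk1 at 91.4, whereas Mc3r stood at 0.998 and was thus among the steadiest genes of its level.

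**Figure D1:**
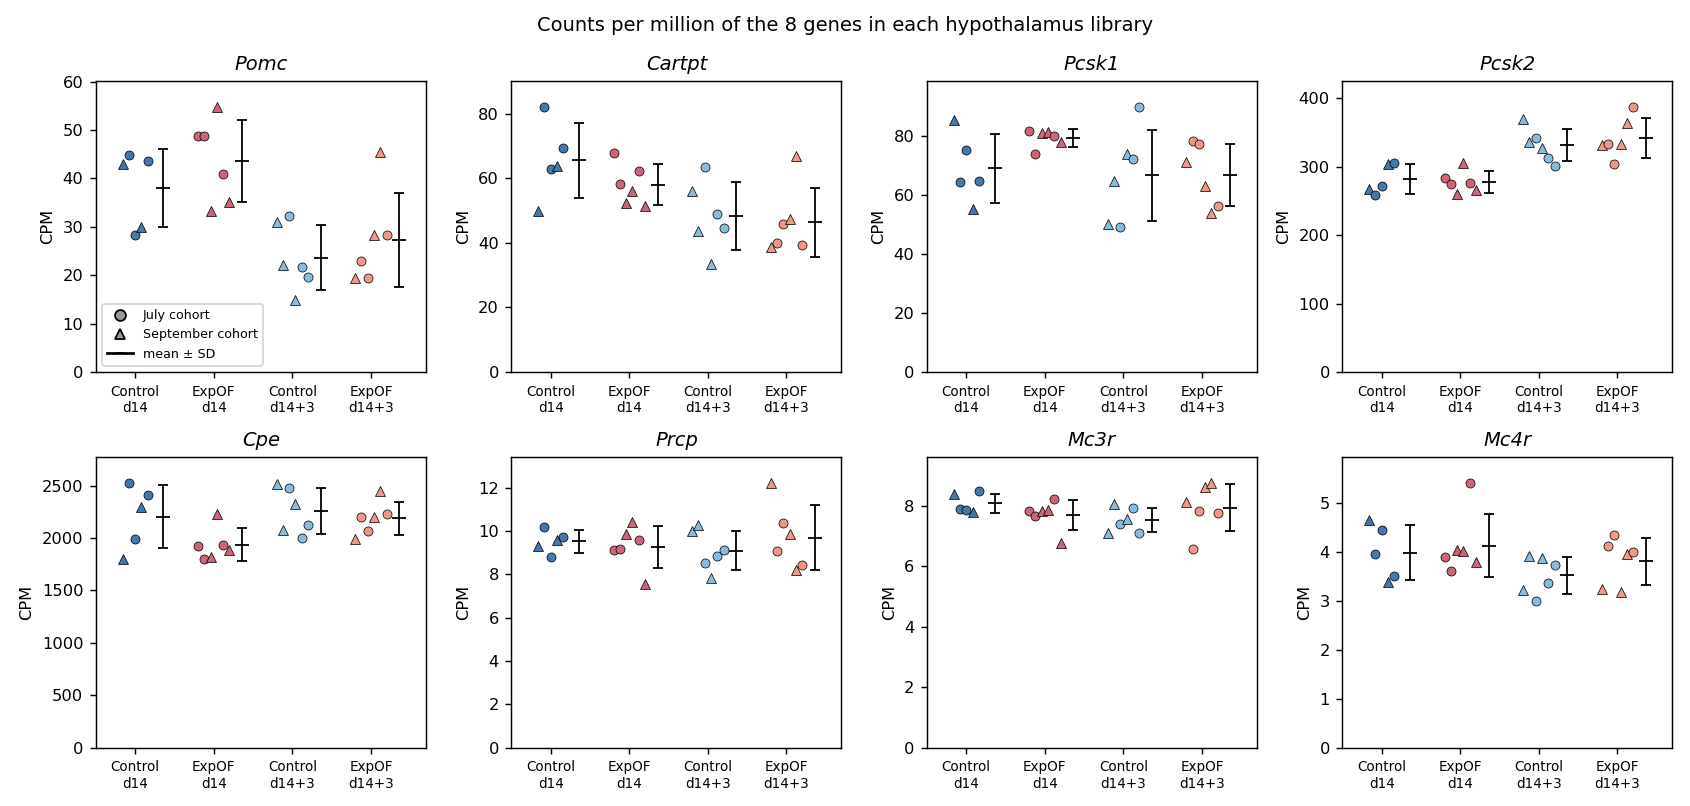
CPM of each of the 8 genes (vertical axes from 0) in the 23 libraries, by group, with circles for the July and triangles for the September cohort and bars for mean ± SD. Pomc and Cartpt lie lower and Pcsk2 higher on d14+3 than on d14 in both diets, with some overlap. Prcp, Mc3r and Mc4r overlap widely between all 4 groups. Cpe lies at 1938 CPM or lower in ExpOF d14 except in replicate 4 (2234 CPM), and at 1993 CPM or higher in ExpOF d14+3.

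Whether overfeeding altered the melanocortin transcripts at its end is addressed by ExpOF d14 against Control d14. None of the 8 genes was past the threshold there, an adjusted p under 0.05 in edgeR's quasi-likelihood test with Benjamini-Hochberg adjustment over all genes tested, and 1 (Cpe) had an unadjusted p under 0.05. Over all genes 0.00527% were called and 26.7% had an unadjusted p under 0.05. DESeq2 called 0 of the 8 and 0.874% of all genes. The median log2 fold change of the 8 was -0.03, against -0.02 over all genes. For 0 of the 8 genes were the groups free of overlap, and 2.5% of all genes were.

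Pomc (ENSMUSG00000020660, chr12:3954951-3960618 of mm10, forward strand, overlapping no other annotated gene) was counted at 42.9, 44.9, 28.4, 29.9 and 43.7 CPM in the 5 Control d14 mice. In ExpOF d14 it ran from 33.2 to 54.6 CPM with a median of 44.8. The groups overlapped, with 3 of 6 ExpOF mice above every control and none below the lowest. Between the groups the log2 fold change was 0.20 (SE 0.21, adjusted p = 0.536 from edgeR), and the 95% interval of the fold ran from 0.851 to 1.55. With all 24 libraries the direction turned (-0.25, adjusted p = 0.531), and with the length score described further on as a covariate the value was 0.57 (adjusted p = 0.879). Without the libraries over 1 CPM of Gh it was 0.48 (adjusted p = 1.00). A difference in Pomc transcript within the interval was not detectable on d14 with these mice. In bulk tissue, fewer POMC cells and less Pomc RNA per cell cannot be told apart.

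Cartpt (ENSMUSG00000021647, chr13:99898489-99900641, reverse strand, no overlapping gene) encodes a peptide that many POMC neurons release together with alpha-MSH, and that other hypothalamic neurons make as well. Its levels in Control d14 were 49.8, 81.9, 62.8, 63.9 and 69.3 CPM. ExpOF d14 mice lay between 51.3 and 68.0 CPM with a median of 57.3, inside the range of the controls. It had a log2 fold change of -0.18 (SE 0.15, adjusted p = 0.434 from edgeR).

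Pcsk1 (ENSMUSG00000021587, chr13:75089826-75134861, forward strand, no overlapping gene) makes the first cuts that free ACTH from the precursor. It stood at 85.5, 64.3, 75.2, 55.4 and 64.7 CPM in Control d14. In ExpOF d14 it lay between 74.0 and 81.6 CPM with a median of 80.5, a narrow band within the spread of the controls. For Pcsk1 the log2 fold change was 0.20 (SE 0.13, adjusted p = 0.315 from edgeR). Pcsk2 (ENSMUSG00000027419, chr2:143546156-143816285, forward strand), which cuts ACTH further towards alpha-MSH, had 268, 259, 272, 304 and 305 CPM in Control d14. ExpOF d14 mice ran from 260 to 305 CPM with a median of 275, which is the same range. Its log2 fold change was -0.02 (SE 0.065, adjusted p = 0.842 from edgeR), and the 95% interval of the fold was 0.898 to 1.08. The antisense genes Pcsk2os1 and Pcsk2os2 overlap 3.29% and 1.25% of the Pcsk2 exon bases on the opposite strand, so a small share of its counts could belong to them if strand was not used in counting.

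Cpe (ENSMUSG00000037852, chr8:64592542-64693054, reverse strand, no overlapping gene) was at 1803, 2524, 1988, 2295 and 2413 CPM in Control d14. In ExpOF d14 it ran from 1801 to 2234 CPM with a median of 1910. In 5 of 6 ExpOF mice it was below 4 of the 5 controls, and the groups overlapped through Control d14 replicate 1 and ExpOF d14 replicate 4. The log2 fold change was -0.19 (SE 0.080, unadjusted p = 0.0284, adjusted p = 0.153 from edgeR). Without Control d14 replicate 1 it was -0.25 (adjusted p = 0.0308 from edgeR), in a fit that called 4220 genes in place of 1, and the average of both diet contrasts given further on then passed for Cpe too (-0.15, adjusted p = 0.0425). The July difference was -0.28 and the September difference -0.04 in mean log2 CPM.

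Prcp (ENSMUSG00000061119, chr7:92874470-92934583, forward strand), which inactivates alpha-MSH by removing its last residue, ranged from 7.58 to 10.4 CPM over both d14 groups. Its locus contains 9530078K11Rik on the same strand, with 0 shared exon bases. Mc3r (ENSMUSG00000038537, chr2:172248492-172251114, forward strand) and Mc4r (ENSMUSG00000047259, chr18:66857704-66860506, reverse strand) are receptors that raise cAMP, and neither overlaps another gene. Mc3r ranged from 6.76 to 8.47 CPM and Mc4r from 3.39 to 5.41 CPM over these groups. Their log2 fold changes at d14 were -0.07 for Mc3r (SE 0.076), 0.03 for Mc4r (SE 0.12) and -0.04 for Prcp (SE 0.099). The groups overlapped for each, and the 95% intervals of the fold were 0.852 to 1.06 for Mc3r, 0.862 to 1.22 for Mc4r and 0.847 to 1.12 for Prcp.

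On d14+3 the comparison asks whether transcripts differed between formerly overfed and control mice 3 days after the infusion had ended. None of the 8 genes was called, none had an unadjusted p under 0.05 (0% and 7.11% of all genes, in the same edgeR fit), and DESeq2 called 0 (0.29% of all genes). The smallest adjusted p of the 8 was 0.794, and the median log2 fold change was 0.06 against 0.01 over all genes. The groups overlapped for each of the 8, whereas they did not for 0.421% of all genes. Pomc ran from 14.9 to 32.2 CPM (median 21.9) in Control d14+3 and from 19.5 to 45.4 CPM (median 25.6) in ExpOF d14+3. Only ExpOF d14+3 replicate 5 lay above every control. The log2 fold change of Pomc was 0.21 (SE 0.20, adjusted p = 0.798 from edgeR). Within the July mice it was -0.04 and within the September mice, which include replicate 5, 0.43, and 0.01 in the fit without that library.

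**Figure D2:**
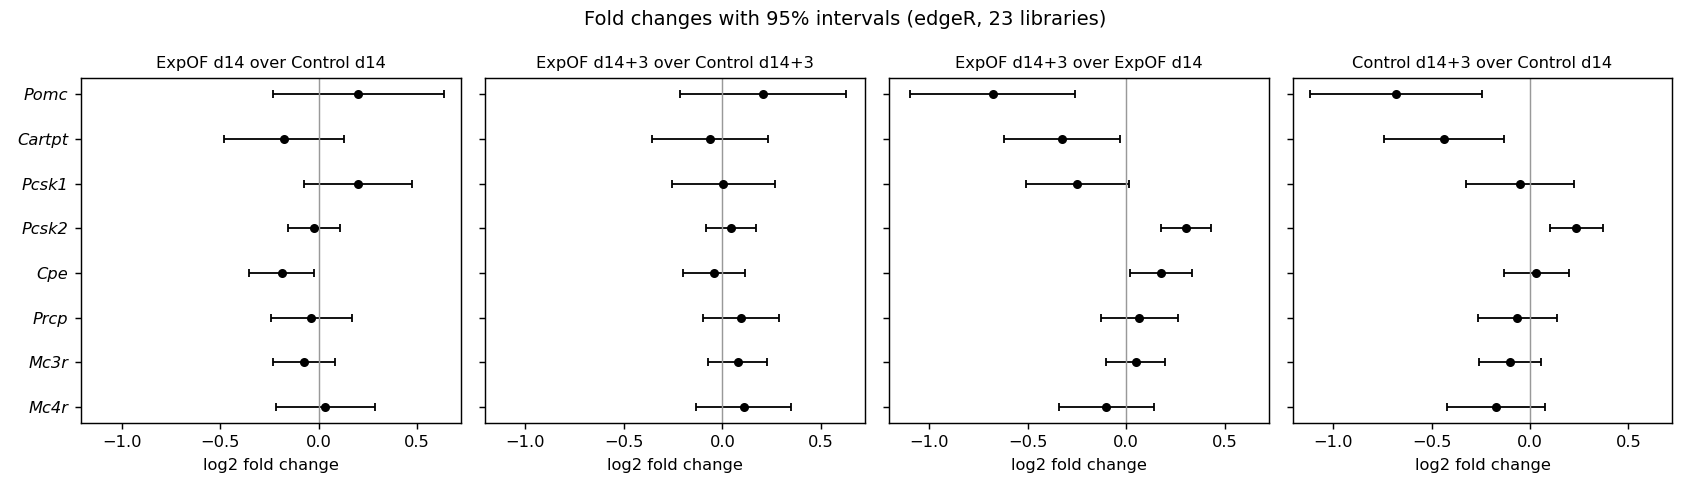
Log2 fold change of each of the 8 genes (horizontal axes, the same in all panels) in the 4 group comparisons, from the edgeR fit of 23 libraries, with bars for the 95% interval. Both diet panels hold intervals across 0 except Cpe on d14 (-0.19), and both day panels hold Pomc and Cartpt left of 0 and Pcsk2 right of 0.

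The levels of d14+3 were next set against those of d14 within each diet. In ExpOF mice 0 of the 8 genes were called by edgeR and 4 had an unadjusted p under 0.05 (Pomc, Cartpt, Pcsk2 and Cpe), where 0% and 7.79% of all genes did. DESeq2 called 1, Pcsk2, and 1.06% of all genes. In Control mice 0 were called and 3 had an unadjusted p under 0.05 (Pomc, Cartpt and Pcsk2), against 1.15% and 12.7% of all genes. DESeq2 called 2 there, Pomc and Pcsk2, and 2.8% of all genes. Groups of the 2 days overlapped for each of the 8 genes in both diets, while they did not for 0.832% of all genes in ExpOF and for 1.58% in Control mice. The median log2 fold change of the 8 was -0.03 in ExpOF and -0.08 in Control mice, and over all genes it was within 0.01 of 0.

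The Pomc level of ExpOF d14+3 was 27.3 ± 9.70 CPM (SD, n = 6) against 43.5 ± 8.50 CPM (SD, n = 6) in ExpOF d14. In 5 of 6 mice of d14+3 it was below every mouse of d14, and replicate 5 stood apart with 45.4 CPM. The log2 fold change was -0.68 (SE 0.20, adjusted p = 0.194 from edgeR), and the two-sided exact permutation test of the single comparison gave p = 0.0130. In Control mice the level was 23.6 ± 6.74 CPM (SD, n = 6) on d14+3 and 37.9 ± 8.09 CPM (SD, n = 5) on d14, with 4 of 6 mice of d14+3 below every mouse of d14. The log2 fold change was again -0.68 (SE 0.21, adjusted p = 0.128 from edgeR; exact permutation test, p = 0.0216). Whether the difference between days itself differed by diet was tested by the interaction of diet and day, which was 0.0045 for Pomc on the log2 scale (adjusted p = 0.999 from edgeR). Its 95% interval from -0.60 to 0.61, not adjusted over genes, is nearly as wide on each side as the difference between days. Interactions somewhat smaller than that difference lie within the interval and were not detectable. Of the 8 interactions 0 were called and 0 had an unadjusted p under 0.05, against 0% and 4.42% over all genes, and DESeq2 called 0 of the 8 and 0% of all genes.

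Cartpt lay between 38.8 and 66.9 CPM in ExpOF d14+3 (median 43.0) and between 33.4 and 63.5 CPM in Control d14+3 (median 46.7). Of the ExpOF mice 5 of 6 were below every ExpOF d14 mouse, and of the Control mice 4 of 6 were below every Control d14 mouse. Its log2 fold changes were -0.32 in ExpOF (adjusted p = 0.559 from edgeR) and -0.44 in Control mice (adjusted p = 0.171). Pcsk2 ran the other way. It lay between 303 and 386 CPM in ExpOF d14+3 (median 333) and between 302 and 370 CPM in Control d14+3 (median 331), and in each diet 5 of 6 mice were above every mouse of d14. Its log2 fold change was 0.30 in ExpOF mice (SE 0.062, adjusted p = 0.0677 from edgeR) and 0.23 in Control mice (SE 0.065, adjusted p = 0.0747). Without ExpOF d14 replicate 4 or ExpOF d14+3 replicate 3 the ExpOF value passed the threshold (lowest adjusted p = 0.0224 from edgeR), as did the Control value without Control d14+3 replicate 6 (adjusted p = 0.0422).

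Pcsk1 showed no such difference in both diets. It ran from 53.9 to 78.2 CPM in ExpOF d14+3 and from 49.0 to 89.7 CPM in Control d14+3, with log2 fold changes of -0.25 (adjusted p = 0.676 from edgeR) and -0.05 (adjusted p = 0.920) between days. Cpe had log2 fold changes of 0.18 in ExpOF mice (adjusted p = 0.550) and 0.03 in Control mice (adjusted p = 0.915), with 1993 to 2450 CPM in ExpOF d14+3 and 2003 to 2520 CPM in Control d14+3. For Prcp, Mc3r and Mc4r the log2 fold changes between days lay between -0.17 and 0.07 in both diets, with levels on d14+3 of 7.84 to 12.2, 6.57 to 8.75 and 3.01 to 4.34 CPM.

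The 2 day contrasts were also averaged over the diets in the same fit, a contrast chosen after the data were seen. That 0 of the 8 interactions passed does not show that the day difference was alike in both diets. Of the 8 genes 3 passed the threshold, where 3.67% of all genes did, and the same 3 had an unadjusted p under 0.05, where 13.7% of all genes did. DESeq2 also called 3, and 5.25% of all genes. Pomc fell by 37.6% from d14 to d14+3 (log2 fold change -0.68, SE 0.15, adjusted p = 0.00785 from edgeR) and Cartpt fell by 23.2% (-0.38, SE 0.10, adjusted p = 0.0354). Pcsk2 rose by 20.4% (0.27, SE 0.045, adjusted p = 0.000868). Pomc and Pcsk2 passed in 23 of 23 fits that each left out 1 library. Cartpt passed in 10 of them, with adjusted p-values up to 0.0950, the highest without Control d14 replicate 2. Its call was also lost with cohort and extraction round as covariates (adjusted p = 0.0508 from edgeR), with the integrity number as a covariate (0.0818), with all 24 libraries (0.0863) and with no filter on low counts (0.129). The other 5 genes had log2 fold changes from -0.15 (Pcsk1) to 0.10 (Cpe).

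Values that moved with the day stand beside these calls. Without the 3 libraries over 10 CPM of Gh, a choice made after the data were seen, Pomc gave -0.56 (adjusted p = 0.0842 from edgeR), Cartpt -0.38 (adjusted p = 0.0736) and Pcsk2 0.25 (adjusted p = 0.00520). Without the 7 libraries over 1 CPM of Gh, which leaves 1 Control d14 and 3 ExpOF d14 mice, Pomc gave -0.39 (adjusted p = 0.676 from edgeR), Cartpt -0.34 (adjusted p = 0.536) and Pcsk2 0.32 (adjusted p = 0.0373). Pomc is also the hormone precursor of pituitary corticotrophs and melanotrophs. The group-centred correlation of Pomc with the summed pituitary markers was 0.27 over the 23 libraries. It was 0.55 with 2 erythrocyte markers, 0.34 with oligodendrocyte and 0.12 with choroid plexus and meningeal markers. Centring on group means removes the difference between days, so none of these r addresses that difference. The part of pituitary cells in the difference of Pomc between days was not tested. Without the 2 libraries over 1000 CPM of Ttr the values were -0.72 for Pomc (adjusted p = 0.0101 from edgeR), -0.39 for Cartpt (adjusted p = 0.0603) and 0.29 for Pcsk2 (adjusted p = 0.00112).

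Regional markers differed between the days in ExpOF mice, and by a like amount that did not pass the threshold in Control mice. The log2 ratio of the summed hypothalamic markers to 6 markers of thalamus and striatum averaged 0.755 in ExpOF d14, 0.704 in Control d14, -0.161 in ExpOF d14+3 and -0.133 in Control d14+3. The difference between days was -0.92 in ExpOF (two-sided exact permutation test, p = 0.00433, and 0.0346 after adjustment over 8 tests) and -0.84 in Control mice (exact permutation test, p = 0.0130, adjusted 0.0519). Pcsk2 is expressed widely in the brain. Within groups Pcsk2 followed this ratio with r = -0.80 (Spearman's rho -0.79, permutation p = 8e-05, adjusted over 16 relations 0.000427), and r was -0.76 without the 2 farthest libraries, -0.90 in July and -0.69 in September. Pcsk1 ran with the ratio (r = 0.63, rho 0.56, permutation p adjusted over 16 relations 0.00861). For Pomc r was -0.15 and for Cartpt 0.08 with the ratio, while with the summed levels themselves Pomc had r = 0.46 for the hypothalamic, 0.50 for the arcuate and 0.51 for the thalamic and striatal markers, and Cartpt 0.76, 0.73 and 0.46 (group-centred, n = 23, a description). With the ratio as a covariate, chosen after the data were seen, 0 of the 8 genes and 0 genes in all were called between days, with values of -0.83 for Pomc (adjusted p = 0.421 from edgeR), -0.34 for Cartpt (adjusted p = 0.452) and 0.08 for Pcsk2 (adjusted p = 0.510). Day and tissue composition cannot be told apart for these 3 genes.

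**Figure D3:**
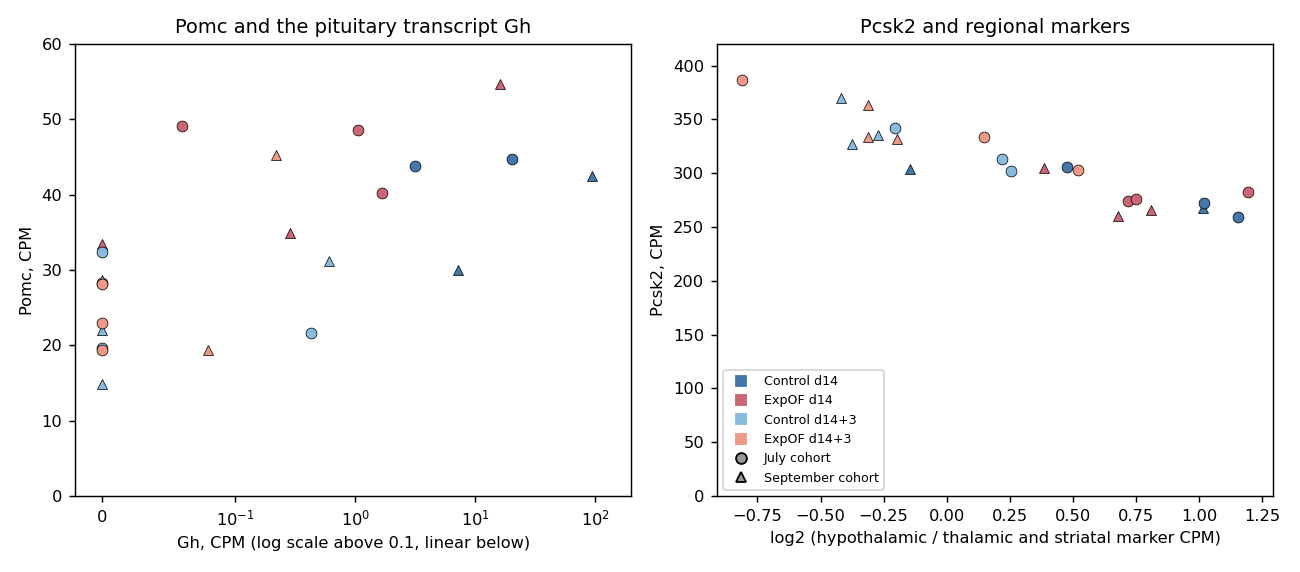
Left, Pomc CPM against Gh CPM (log scale above 0.1, linear below); right, Pcsk2 CPM against the log2 ratio of hypothalamic to thalamic and striatal marker CPM, 1 point per library (n = 23), with colours for groups and shapes for cohorts. Libraries over 1 CPM of Gh are all from d14, and Pcsk2 lies lower where the ratio is higher (group-centred r = -0.80).

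The average of both diet contrasts, also chosen after the data were seen, gave 0 calls among the 8 genes and 1 at an unadjusted p under 0.05 (Cpe), where 0.569% and 29.2% of all genes passed. DESeq2 called 0 of the 8 and 8.31% of all genes. Pomc had a log2 fold change of 0.20 (adjusted p = 0.350 from edgeR) and Cpe of -0.12 (adjusted p = 0.169). Between the September and the July cohort 0 of the 8 genes were called and 0 had an unadjusted p under 0.05 (0% and 3.88% over all genes), and DESeq2 called 0 (0% of all genes). Their values within the cohorts show where the day difference was carried. Pomc differed between days by -0.98 in July and -0.45 in September among ExpOF mice, and by -0.67 and -0.72 among Control mice. For Cartpt the values were -0.59 and -0.10 among ExpOF mice and -0.46 and -0.38 among Control mice. For Pcsk2 they were 0.29 and 0.31 among ExpOF mice and 0.19 and 0.27 among Control mice. The sign was the same in both cohorts for these 3 genes, with 3 mice on each side (2 in Control d14 of September).

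Ratios of 2 transcripts within a library do not depend on the scaling between libraries. Pomc/Agrp sets the agonist precursor against the antagonist of the same receptors. It was 3.24 to 6.60 (median 4.28) in Control d14 and 7.93 to 13.5 (median 9.01) in ExpOF d14. Each of the 6 ExpOF mice was above each of the 5 controls. The mean log2 ratio differed by 1.06 (p = 0.00216 in a two-sided exact permutation test, which can go no lower with 6 mice against 5, and 0.0173 after adjustment over 16 ratio tests). The July and September differences were 1.07 and 1.04. Over the 11 sets with 1 library left out, the difference ran from 0.95 to 1.20 and the adjusted exact p from 0.0254 to 0.0635, and 5 sets passed the threshold. Leaving out a mouse cannot make these groups overlap, and with fewer mice the lowest exact p that can be reached is higher. The count of sets that passed follows from group sizes and the adjustment, so it does not measure how stable the difference is. Agrp averaged 8.60 CPM in Control d14 and 4.62 CPM in ExpOF d14 (log2 fold change -0.90, adjusted p = 0.117 from edgeR) beside the 0.20 of Pomc. The study, which tested with DESeq2, reported Agrp as lower in overfed mice on d14. The annotated Agrp gene overlaps several others, among them Ripor1 and Ctcf on the opposite strand, so some of its counts could belong to these if strand was not used in counting.

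On d14+3 the same ratio was 2.99 to 7.31 (median 4.74) in Control and 2.95 to 11.1 (median 6.42) in ExpOF mice. The groups overlapped, and the difference was 0.36 (exact permutation test, p = 0.355, adjusted 0.473). Whether the d14 and d14+3 ratio differences differ from each other was not tested. Between days the ratio differed by -0.69 in ExpOF mice (exact permutation test, p = 0.0563, adjusted 0.225) and by 0.02 in Control mice (exact permutation test, p = 0.944). Without ExpOF d14+3 replicate 5 the ExpOF value was -0.87 (exact permutation test, adjusted p = 0.0115).

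The ratio of the 2 convertases, Pcsk1/Pcsk2, was 0.268 to 0.311 (median 0.289) in ExpOF d14 and 0.146 to 0.255 (median 0.202) in ExpOF d14+3. Each mouse of d14+3 was below each mouse of d14. The mean log2 ratio differed by -0.56 (p = 0.00216 in a two-sided exact permutation test and 0.0173 after adjustment over the 16), and by -0.46 in July and -0.67 in September. With 1 library left out it ran from -0.64 to -0.48, and 6 of 12 sets passed the threshold (adjusted exact p from 0.0115 to 0.0635). The groups stay without overlap in every set, so this count too follows from group sizes and the adjustment over the 16. It does not measure how stable the difference is. The regional marker ratio given above differed by -0.92 in the same comparison, and Pcsk1 and Pcsk2 followed it with opposite signs (r = 0.63 and -0.80), so tissue composition and day cannot be told apart for this ratio. In Control mice the ratio was 0.182 to 0.319 on d14 and 0.136 to 0.297 on d14+3, a difference of -0.30 (exact permutation test, p = 0.227, adjusted 0.404). Pomc/Cartpt and Mc4r/Mc3r did not pass the threshold in any of the 4 comparisons. The lowest adjusted p of these 8 differences was that of -0.37 for Pomc/Cartpt between days in ExpOF mice (exact permutation test, p = 0.0325, adjusted 0.173), and without Control d14 replicate 1 the d14 difference of Pomc/Cartpt passed (0.51, exact permutation test, adjusted p = 0.0254).

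**Figure D4:**
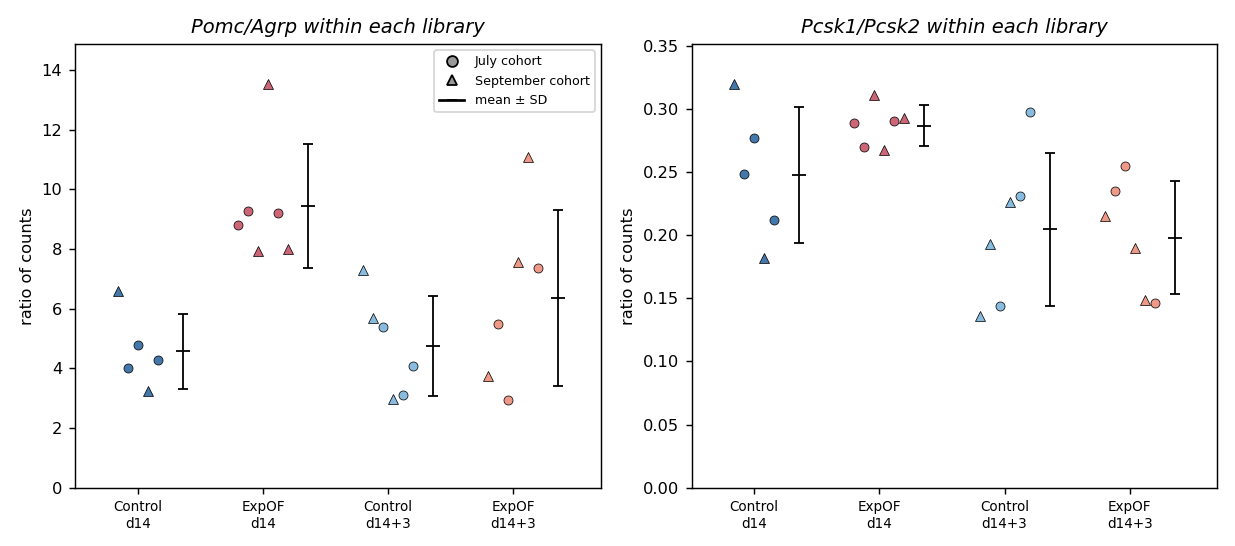
Ratio of Pomc to Agrp counts (left) and of Pcsk1 to Pcsk2 counts (right) in each of the 23 libraries, by group, on axes from 0, with circles for July, triangles for September and bars for mean ± SD. On d14 the ExpOF mice lie above all controls in Pomc/Agrp, and in ExpOF mice Pcsk1/Pcsk2 is lower on d14+3 than on d14 without overlap.

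Members were compared with each other over the 23 mice after each group's mean had been removed, in 6 pairs with p-values adjusted over the 6. Pomc and Cartpt rose and fell together (Pearson's r = 0.72, permutation p = 0.00087, adjusted 0.00345; Spearman's rho 0.64, adjusted p = 0.0110). Inside single groups it was from 0.18 (Control d14, n = 5) to 0.97 (Control d14+3, n = 6), given as a description. Without the 2 libraries farthest in Pomc r was 0.54, and it was 0.58 in July and 0.77 in September. The convertases ran against each other, with r = -0.70 for Pcsk1 and Pcsk2 (permutation p = 0.00115, adjusted 0.00345; rho -0.65), and -0.69 without the 2 farthest libraries, -0.68 in July and -0.73 in September. Inside single groups this r was negative in 3 groups (-0.60 to -0.89) and 0.31 in ExpOF d14 (n = 6). Pomc and Pcsk1 gave r = -0.57 (permutation p = 0.0159, adjusted 0.0239; rho -0.55), -0.49 without the 2 farthest, -0.85 in July and -0.41 in September. Pcsk2 and Cpe gave r = 0.57 (permutation p = 0.0100, adjusted 0.0200; rho 0.58), 0.56 without the 2 farthest, 0.39 in July and 0.89 in September. With all 24 libraries r was only -0.19 for Pcsk1 and Pcsk2 and -0.0266 for Pcsk2 and Cpe, so both relations depend on leaving out Control d14 replicate 4. It was 0.87 for Pomc and Cartpt and -0.75 for Pomc and Pcsk1 with all 24. No relation passed the test for the receptors Mc3r and Mc4r (r = 0.04, permutation p = 0.858; rho 0.04), with 0.06 in July and 0.65 in September, or for Pomc and Agrp (r = -0.05, permutation p = 0.849; rho -0.10), with 0.30 in July and -0.66 in September and 0.36 with all 24 libraries.

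**Figure D5:**
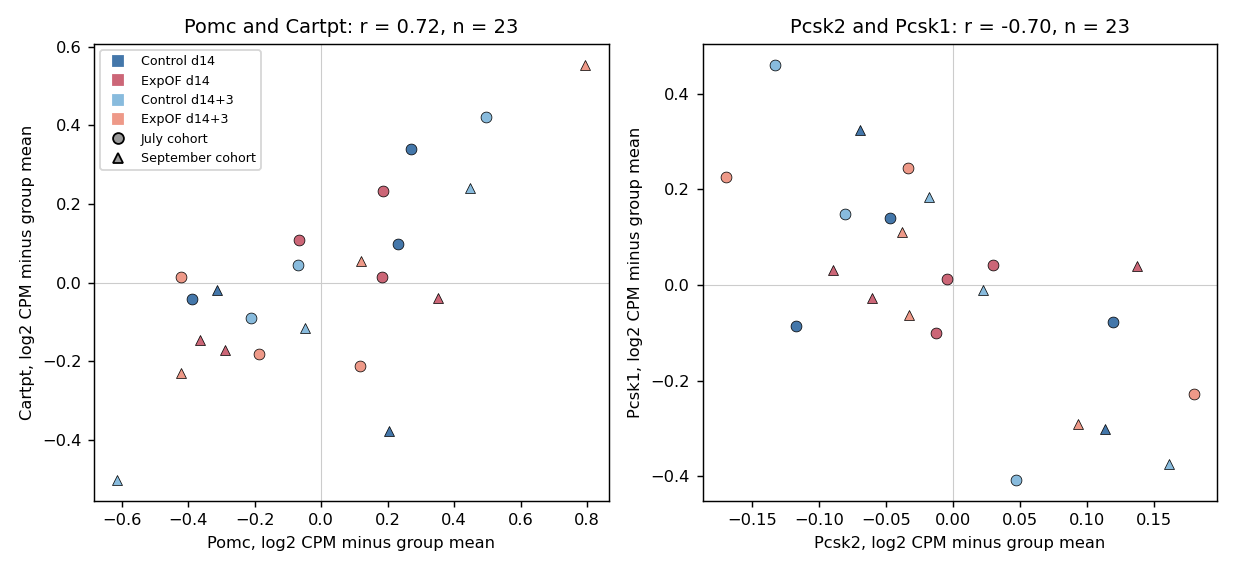
Log2 CPM minus the group mean, Cartpt against Pomc (left, r = 0.72) and Pcsk1 against Pcsk2 (right, r = -0.70), 1 point per library (n = 23), with colours for groups and shapes for cohorts. Most points follow both trends, the exception being ExpOF d14 in the right panel (r = 0.31 within that group), and ExpOF d14+3 replicate 5 is the point highest in Pomc and Cartpt.

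A property of the libraries moved with these pairs. The mean log2 CPM of 943 genes with under 1500 exon bases minus that of 6263 genes with over 5000 was taken as a length score of each library. Within groups this score had r = 0.84 with Cartpt (rho 0.80, permutation p = 2e-05, adjusted over 16 relations 0.00032), 0.84 with Cpe (rho 0.73, adjusted p = 0.00032), 0.64 with Pomc (rho 0.66, adjusted p = 0.0101), -0.79 with Pcsk1 (rho -0.79, adjusted p = 0.00104) and -0.51 with Mc4r (rho -0.64, adjusted p = 0.0414). Without the 2 farthest libraries these r were 0.75, 0.84, 0.45, -0.71 and -0.55, in the same order. Pomc, Cartpt and Cpe have 1318, 1277 and 2609 exon bases and Pcsk1 has 5604, while Pcsk2 with 7910 had r = 0.47 (adjusted p = 0.101). On d14 the score of ExpOF minus that of Control mice was -0.33 (two-sided exact permutation test, p = 0.0238, and 0.0635 after adjustment over 8 tests). With the score as a covariate, chosen after the data were seen, the d14 log2 fold changes of Cartpt and Cpe changed sign, to 0.20 (adjusted p = 0.917 from edgeR) and 0.0195 (adjusted p = 0.987). The part of this score in the correlations was not tested.

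By the same measure, over 14172 genes with a mean of at least 50 counts, the genes most like Pomc included Bola1 (r = 0.83), Col9a2 (0.81), Zfp513 (0.80) and Acot8 (0.80). Those most like Cartpt were Rtl8c (0.91), Pafah1b3 (0.91), Mad2l2 (0.91), Ppm1m (0.90) and Smpd2 (0.90). For Mc4r they were Zfp74 (0.83), Rad17 (0.80), Bcl6 (0.77), Tnfaip8l3 (0.76) and Mapk8 (0.75), and for Mc3r Rgs14 (0.70), Lrrc47 (0.62), Mmachc (0.60), Zfp747 (0.59) and Maats1 (0.59). These r are over 23 libraries and share depth, length score and dissection with the members, so they are given as a description.

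Around the 8 genes, 7 hand-written lists of the pathway were counted. Of 13 regulators of the Pomc gene 12 were tested (Neurog3 was not), and 0 were called by edgeR in either diet comparison or within either diet between days. On d14 2 were higher and 1 lower at an unadjusted p under 0.05 (26.7% of all genes), and on d14+3 1 was higher (7.11% of all genes). Among those with the smallest unadjusted p-values on d14 were Stat3, which carries the leptin signal to the Pomc promoter (log2 fold change 0.17, adjusted p = 0.135 from edgeR) and Nr3c1, the glucocorticoid receptor (0.18, adjusted p = 0.157). The study, which tested with DESeq2, reported Stat3 as higher in overfed mice on d14. The median of the list was 0.05 on d14, against -0.02 over all genes. In the average of the diet contrasts Stat3 was higher in ExpOF mice (0.14, adjusted p = 0.0483), and Agrp of the next list was lower (-0.53, adjusted p = 0.0483). These calls and that of Adcy3 given further on rest on a small margin, since each passed in 6 of 23 fits with 1 library left out and in 6 of the 15 other alternatives. In the average of the day contrasts Nkx2-1, a homeodomain factor needed for Pomc expression and a hypothalamic marker of the regional ratio above, fell by 0.35 on the log2 scale (adjusted p = 0.0146), from 18.8 and 17.9 CPM in Control and ExpOF d14 to 14.8 and 13.9 CPM in Control and ExpOF d14+3. Nkx2-1 and the other genes of the lists called only in these averages were named after their values were seen. With the regional ratio as a covariate 0 genes were called between days, so each of the calls between days over both diets in these lists was lost there.

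Of 11 receptor partners and antagonists 8 were tested (Asip, Mc1r and Mc2r were not). The calls of list genes between days in Control mice that follow (Agrp, Atrnl1, Rasgef1b, Scg2, Prep and Pdyn) were all lost in the 6 fits with only the 2 groups, with either cohort alone, with the regional marker ratio as a covariate and without either set of libraries high in Gh, each of which called 0 genes. With 1 library left out, Rasgef1b was called in 11 of 11 fits and the other 5 in 4 to 7. In Control mice Agrp fell by 0.75 on the log2 scale between the days (adjusted p = 0.0284 from edgeR), from 8.60 to 5.13 CPM, and Atrnl1, a relative of attractin, rose by 0.30 (adjusted p = 0.0284), from 63.8 to 78.7 CPM. Attractin itself (Atrn) had a d14 log2 fold change of 0.20 (adjusted p = 0.149). In the average over diets Atrnl1 rose by 0.29 (adjusted p = 0.000894), and Mrap2, the accessory protein of melanocortin receptors, fell by 0.21 (adjusted p = 0.0295), from 54.0 and 50.7 CPM to 44.5 and 45.9 CPM in Control and ExpOF mice. The median of the list between days was 0.03 in this average, against 0.00 over all genes.

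Of 13 genes listed downstream of Mc4r 12 were tested (Kcnj13 was not), and on d14 5 were higher and 2 lower at an unadjusted p under 0.05 (26.7% of all genes were in either direction), with 0 called and a median of 0.05. These included Adcy3, an adenylate cyclase (log2 fold change 0.18, adjusted p = 0.135 from edgeR), Creb1 (0.38, adjusted p = 0.135) and the G protein subunit Gnaq (0.22, adjusted p = 0.151). In the average of the diet contrasts Adcy3 was higher in ExpOF mice by 0.19 (adjusted p = 0.0469). Rasgef1b, listed with them, rose between days in Control mice by 0.54 (adjusted p = 0.00670), from 25.4 to 36.9 CPM, and by 0.48 over both diets (adjusted p = 0.000262).

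Of 19 other genes of prohormone processing and secretory granules, all tested, 2 were higher and 6 lower at an unadjusted p under 0.05 on d14 (26.7% of all genes in either direction), with 0 called and a median of -0.04. Those with the smallest p were Scg2, a granin (log2 fold change -0.15, adjusted p = 0.135 from edgeR), Scg5, the chaperone of PC2 (-0.24, adjusted p = 0.136), and Cpd, a carboxypeptidase related to Cpe (0.25, adjusted p = 0.139). Between days in Control mice Scg2 fell by 0.23 (adjusted p = 0.0254), from 1215 to 1036 CPM. Over both diets Scg2 fell by 0.15 (adjusted p = 0.0170), and Pam, the enzyme that amidates alpha-MSH at its end, fell by 0.17 (adjusted p = 0.0137), from 415 and 404 CPM to 359 and 371 CPM in Control and ExpOF mice. The list's median over both diets was -0.05.

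Of 11 other peptide-degrading enzymes, all tested, 1 was called between days. Prep, a prolyl peptidase like Prcp, rose by 0.31 in Control mice (adjusted p = 0.0283 from edgeR), from 25.7 to 31.8 CPM, and by 0.25 over both diets (adjusted p = 0.00405). On d14 Dpp7, Mme and Ide had log2 fold changes of -0.20, 0.33 and 0.10 (adjusted p = 0.145, 0.151 and 0.257). Of 7 opioid genes, which matter here because POMC also yields beta-endorphin, Pdyn fell by 0.41 between days in Control mice (adjusted p = 0.0171), from 73.0 to 54.8 CPM. Over both diets Pdyn fell by 0.34 (adjusted p = 0.00132) and Penk fell by 0.24 (adjusted p = 0.0169). On d14 Pnoc and Oprk1 had log2 fold changes of -0.25 (adjusted p = 0.136) and 0.39 (adjusted p = 0.141). Of 12 receptors and channels through which POMC neurons sense hormones and transmitters, 0 were called in any comparison by edgeR. On d14 3 were higher at an unadjusted p under 0.05 (26.7% of all genes in either direction), Htr1b (0.42, adjusted p = 0.140), Cnr1 (0.38, adjusted p = 0.142) and Npy1r (0.24, adjusted p = 0.164), and the list's median was 0.21 against -0.02 over all genes. In the diet average 6 of the 12 were higher and 0 lower at an unadjusted p under 0.05, with a median of 0.18 against -0.01. Over all genes 29.2% passed in either direction, and 2798 of these 5549 were higher. The length score of ExpOF minus that of Control mice was -0.33 on d14, and its part in these values was not tested.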

How the data were processed

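Hypothalamic poly-A RNA of 24 mice was sequenced from stranded libraries as paired-end reads of 51 bases. The authors aligned the reads with STAR and deposited raw counts per gene (featureCounts 1.6.4, mm10, GENCODE M22), and whether counting used strand is not given in the sources used here. The deposited table pairs gene IDs with coordinates, and 55144 of its 55471 IDs were matched to symbols through the reference annotation. Control d14 replicate 4 was left out of the main fit: the study removed 1 Control d14 mouse for RNA quality without naming it in the labels, and this library was identified from mean expression values in the study's supplement, although its labelled integrity number is 9.8. Of the columns of per-sample values 0 went unused.

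Counts were normalised by TMM in edgeR 4.0.16 (R 4.3.3), genes were filtered with filterByExpr (minimum count 10, minimum total 15), and 1 robust quasi-likelihood fit over 23 libraries and 4 groups gave each comparison, with Benjamini-Hochberg adjustment over 18992 genes and a threshold of 0.05. Alternatives were DESeq2 1.42.0, median-of-ratios size factors, other filters on low counts, the 2 groups alone, all 24 libraries, each cohort alone, integrity number, cohort and extraction round as covariates, and each library left out in turn. The study's own tests used DESeq2, in an earlier version. Single values were compared by two-sided exact permutation tests of mean log2 CPM (prior count 2) or log2 ratio (0.5 added to each count), and correlations by 100000 permutations. The scripts were tested on simulated data. The total counts of 8.93e+06 to 3.48e+07 per library set the counting precision. The 60 pairs of libraries within a group differed by at least 2.95 chi-square units per degree of freedom, so none was counted as a duplicate.

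The 8 genes and all lists were chosen with earlier results of these data known. Named besides the 8 were, from each list, the 3 genes of smallest p on d14 and any called in a comparison, and for Pomc, Cartpt, Mc3r and Mc4r the 5 genes of highest group-centred correlation with a mean of at least 50 counts. Some genes that this rule names are not reported here. The averaged contrasts and the library scores were added after the data were seen. Replicate numbers did not pair the mice: correlations of deviations from the group means between mice of the same number went down to -0.40, and not every pair was over 0.1.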

Additional observations from a re-analysis of the deposited data

Results flagged for a closer look

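In 48 sets of 5 or 6 mice (the 8 genes and 4 ratios in each of the 4 groups) the highest and lowest mouse was set against its nearest neighbour, and 5 sets held a mouse that stood apart by Dixon's test, where chance flags about 1 in 20. ExpOF d14+3 replicate 5 had 45.4 CPM of Pomc (next highest 28.4) and 66.9 CPM of Cartpt (next highest 47.3). Cpe reached 2234 CPM in ExpOF d14 replicate 4 (next highest 1938), and the same mouse had a Pomc/Agrp ratio of 13.5 (next highest 9.28). Mc4r reached 5.41 CPM in ExpOF d14 replicate 5 (next highest 4.05).

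Control d14 replicate 4, left out of the comparisons, lay outside the range of the other 23 libraries for 6 of the 8 genes when all 24 were scaled together. It had 126 CPM of Pomc (highest of the others 54.3) and 214 CPM of Cartpt (highest of the others 81.3), which are 3.33 and 3.29 times the mean of the other Control d14 mice. Cpe was at 3595 CPM (highest of the others 2516) and Mc3r at 10.4 CPM (highest of the others 8.70). Pcsk1 and Pcsk2 were lower than in all others, at 37.9 and 227 CPM, where the lowest of the others were 49.0 and 257 CPM. Mc4r at 4.10 and Prcp at 9.73 CPM lay within the range.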

How the results depend on the processing

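Over 1816 values of the 8 genes under the alternatives, 137 changed sign, 4 of them with an unadjusted p under 0.05 in either fit: with the length score as a covariate Cartpt gave 0.20 on d14 and 0.17 in the diet average, and Cpe 0.0195 and 0.0448. The number of the 8 called between days in ExpOF mice was 1 under DESeq2, with at least 10 counts in every library, with only the 2 groups compared, with cohort and extraction round as covariates and without libraries over 10 CPM of Gh, and 4 with the length score. In Control mice it was 2 under DESeq2 and 2 with the length score. In the day average it was 0 in July alone, 0 in September alone, 0 with the tissue score (the regional marker ratio), 5 with the length score, and 1 without libraries over 10 CPM or over 1 CPM of Gh. The cause was not tested for any of these.

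Counts over all genes moved more. On d14 1 gene was called, against 166 under DESeq2, 2 with only the 2 groups, and 0 in July alone, in September alone or without libraries over 1 CPM of Gh. On d14+3 0 were called, against 55 under DESeq2, 26 with the integrity number and 1 with the length score or without libraries over 1 CPM of Gh. Between days in ExpOF mice 0 became 202 under DESeq2, 28 under the stricter filter, 123 with only the 2 groups, 78 with cohort and extraction round, 314 with the length score, and 123 and 36 without libraries over 10 and over 1 CPM of Gh. In Control mice 218 became 531 under DESeq2, 1007 with the length score, and 0 with only the 2 groups, in either cohort alone, with the tissue score or without either set of libraries with Gh. In the day average 697 became 441 with no filter, 359 with all 24 libraries, 1 in July, 71 in September, 2004 with the length score, 0 with the tissue score, and 406 and 213 without libraries over 10 and over 1 CPM of Gh. In the diet average 108 became 1579 under DESeq2, 15 with no filter, 364 under the stricter filter, 2 with all 24 libraries, 3 in July, 0 in September, 2083 with the integrity number, 5 with cohort and extraction round, 1 with the length score, 765 with the tissue score, 1481 and 0 without libraries over 10 and over 1 CPM of Gh, and 4 without libraries over 1000 CPM of Ttr.

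With the replicate number as a block, 33 genes were called in Control mice between days, 406 in the day average and 2 in the diet average, and of the 8 genes only Cartpt in the day average lost its call (adjusted p = 0.0711 from edgeR). The numbers do not pair the mice.

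With 1 library left out, the 8 genes gave 0 to 1 calls on d14, between days in ExpOF mice, between days in Control mice and in the diet average, and 2 to 3 in the day average. All genes gave 1 to 4220 calls on d14 (4220 without Control d14 replicate 1, 3 without replicate 3), 0 to 157 in ExpOF mice (157 without ExpOF d14+3 replicate 3, 87 without ExpOF d14 replicate 4), 24 to 313 in Control mice (lowest without Control d14 replicate 2), 495 to 871 in the day average and 4 to 4339 in the diet average (4339 without Control d14 replicate 1). Pomc/Cartpt on d14 ran from 0.28 to 0.51, Pomc/Agrp on d14 from 0.95 to 1.20 and between days in ExpOF mice from -0.87 to -0.49, and Pcsk1/Pcsk2 in ExpOF mice from -0.64 to -0.48. Within 1 cohort 3 mice against 2 or 3 cannot reach an exact p of 0.05, so the ratios did not pass there (Pomc/Agrp 1.07 and 1.04, Pcsk1/Pcsk2 -0.46 and -0.67 in July and September). With all 24 libraries the correlation of Pcsk1 with Pcsk2 was -0.19 and that of Pcsk2 with Cpe -0.0266.

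At a mean of 91.5 counts per library, counting error limits what can be seen for Mc4r, and the spread between mice limits Pomc.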
